A study of Mus musculus with 30 samples.

Results

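Mitotic and DNA replication genes are 42 genes that dividing cells use to copy their chromosomes and to separate them. They were taken from a written list of gene symbols, chosen with earlier results of these data known. Each symbol matched 1 row of the deposited count table, and the 42 rows stood among 36103 genes. The list was sorted by role into cyclins and mitotic kinases (7 genes), the spindle checkpoint and the anaphase-promoting complex (5), centromere, kinetochore and passenger proteins (7), spindle motors and spindle assembly (5), cytokinesis (6), chromosome structure and mitotic entry (3), the replicative helicase (6), and deoxynucleotide supply with the sliding clamp (3). All 42 passed the filter on low counts in each of the 4 tissues.

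RNA was sequenced from whole gastrocnemius, diaphragm, heart and liver of male Mtm1-/y mice, which the labels call Mtm1KO, and of their WT littermates. All animals were 5 weeks old and on a 129Pas background. Mtm1 is X-linked and encodes myotubularin, a phosphoinositide phosphatase, and its loss is a mouse model of X-linked centronuclear myopathy. The knockout was in the whole body, so that every tissue and every cell type of an Mtm1-/y animal lacked the gene. For both gastrocnemius and heart there were 4 WT and 4 Mtm1-/y libraries, for the diaphragm 4 WT libraries with 3 from Mtm1-/y mice (numbered 1, 2 and 4), and for the liver 3 WT libraries with 4 from Mtm1-/y mice. The sources used here give no pooling of animals and do not say whether equal numbers in different tissues mark the same mouse, and library totals ran from 24873817 to 44289343 counts.

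A cell that prepares to divide first makes deoxynucleotides and loads the MCM helicase and the clamp PCNA onto its DNA. It then activates CDK1 with cyclins A and B, attaches its chromosomes to a spindle through kinetochores, and is held by the spindle checkpoint until the anaphase-promoting complex destroys cyclin B and securin. Most of these genes are transcribed in S phase or in G2 and M and are repressed by the DREAM complex in resting cells. Muscle fibres and cardiomyocytes of a growing mouse have largely left the cycle, and satellite cells, fibroblasts, endothelial cells, macrophages and hepatocytes can still divide. In RNA from whole tissue, fewer cells of a type and less RNA per cell cannot be told apart.

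Genes of the mitotic programme are known for a CHR element near their start, and genes of replication for E2F sites, so these letters were looked for in the RefSeq promoter windows of build GRCm38.p6, which reach from 250 bases before the start to 50 bases after it. Of the 42 genes, 37 were matched to a window. The CHR (TTTGAA or TTTAAA, on either strand) was found for 29 of the 37 genes, or 78.4%, against 30.6% of 27025 genes in the table. By role it was found for 26 of 29 mitotic genes and for 3 of 8 replication genes. A CCAAT box (CCAAT on either strand) was found for 30 of the 37 genes, or 81.1%, against 41.1% of all genes, and both motifs together for 25 genes, or 67.6%, against 12.2%. An E2F core (TTTGGCG, or the variant TTTCGCG, or the variant TTTCCCG, or the variant TTTGCCG, on either strand) was found for 4 of 8 replication genes and for 4 of 29 mitotic genes, against 7.65% of all genes. A match describes letters and is no evidence of binding. The 250 bases before the start are shown for 4 genes of different roles that rose in Mtm1-/y gastrocnemius and for the 2 that fell there, with CHR and CCAAT motifs in capitals, 5' to 3' along the strand of the gene.
Kif11, chr19:37376132-37376381, plus strand: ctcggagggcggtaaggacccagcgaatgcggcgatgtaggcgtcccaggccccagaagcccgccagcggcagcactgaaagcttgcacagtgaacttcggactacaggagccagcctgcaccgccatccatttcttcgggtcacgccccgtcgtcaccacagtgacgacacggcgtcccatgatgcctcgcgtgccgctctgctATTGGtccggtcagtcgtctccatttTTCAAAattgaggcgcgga
Ndc80, chr17:71526858-71527107, minus strand: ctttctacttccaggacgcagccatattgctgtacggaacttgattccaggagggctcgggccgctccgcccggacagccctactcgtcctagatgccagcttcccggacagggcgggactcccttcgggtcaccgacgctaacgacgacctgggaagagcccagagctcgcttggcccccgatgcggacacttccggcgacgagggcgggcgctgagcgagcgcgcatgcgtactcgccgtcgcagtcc
Rrm2, chr12:24708004-24708253, plus strand: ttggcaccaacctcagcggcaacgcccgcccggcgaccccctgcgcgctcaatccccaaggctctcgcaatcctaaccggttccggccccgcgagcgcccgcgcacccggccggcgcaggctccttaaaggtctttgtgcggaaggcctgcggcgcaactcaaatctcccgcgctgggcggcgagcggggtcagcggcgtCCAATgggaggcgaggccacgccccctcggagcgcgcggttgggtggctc
Mcm3, chr1:20820313-20820562, minus strand: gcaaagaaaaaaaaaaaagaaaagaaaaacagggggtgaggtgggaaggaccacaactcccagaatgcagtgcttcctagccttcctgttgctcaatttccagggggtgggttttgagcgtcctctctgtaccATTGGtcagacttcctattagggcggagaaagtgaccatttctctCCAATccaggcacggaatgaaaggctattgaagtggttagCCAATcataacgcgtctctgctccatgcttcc
Ube2c, chr2:164769679-164769928, plus strand: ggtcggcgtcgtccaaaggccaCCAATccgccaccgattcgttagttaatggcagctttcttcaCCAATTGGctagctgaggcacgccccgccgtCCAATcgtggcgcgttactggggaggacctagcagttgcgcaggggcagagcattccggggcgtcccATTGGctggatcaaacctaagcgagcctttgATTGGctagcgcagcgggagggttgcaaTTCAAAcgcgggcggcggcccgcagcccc
Aurka, chr2:172370571-172370820, minus strand: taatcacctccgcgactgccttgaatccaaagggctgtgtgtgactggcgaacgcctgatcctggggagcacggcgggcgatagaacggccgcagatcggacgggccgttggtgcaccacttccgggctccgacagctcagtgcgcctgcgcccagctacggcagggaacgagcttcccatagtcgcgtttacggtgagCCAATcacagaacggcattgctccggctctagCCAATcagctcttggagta
Kif11 carried a CHR that began 19 bases before the start and a CCAAT box 45 bases before it. Ube2c carried a CHR 29 bases before the start and 6 CCAAT boxes, of which a pair overlap in the palindrome CCAATTGG. Aurka held CCAAT boxes at 51 and 19 bases before the start, Mcm3 at 117, 72 and 32 bases, and Rrm2 at 50 bases. Ndc80 held none of these letters in the bases shown, and the CHR matches counted for Aurka, Ndc80 and Rrm2 lay outside them.

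The labels were checked first on the targeted gene. Mtm1 was at 19.3, 19.2, 20.6 and 18.8 CPM (counts scaled to library size, with library sizes adjusted by the trimmed mean of M values within a tissue) in WT gastrocnemius and at 3.98, 4.87, 4.41 and 5.33 CPM in Mtm1-/y gastrocnemius (log2 fold change -2.07, SE 0.10, adjusted p = 2.07e-05 with the quasi-likelihood test of edgeR and Benjamini-Hochberg adjustment over all genes tested). The adjusted p of Mtm1 was 0.0269 in diaphragm, 2.64e-05 in heart and 0.365 in liver (log2 fold change -1.60, SE 0.23), and in each tissue every Mtm1-/y library was below every WT library. Each tissue was highest in its own marker list, skeletal myofibre in the gastrocnemius and diaphragm, cardiomyocyte in the heart and hepatocyte in the liver. Hepatocyte markers were also high in the diaphragm. Their summed level was 43180, 28100, 526.6 and 31840 CPM in the WT libraries and 3346, 56550 and 942.3 CPM in the Mtm1-/y libraries. Diaphragm WT 2 stood apart in T cell and thymocyte markers, at 111.9 CPM against 2.58 to 5.10 CPM in the other 6 diaphragm libraries. Below, "rose" and "fell" stand for an edgeR adjusted p under 0.05, values are listed in the order of the library numbers, and CPM always means the scaled value.

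The level of these genes varied between libraries of 1 genotype as well as between genotypes. The summed level of the 42 genes was 149, 154.1, 130 and 115 CPM in WT gastrocnemius and 120.8, 144.5, 244 and 161.5 CPM in Mtm1-/y gastrocnemius. In the diaphragm it was 192, 187, 130.8 and 143 CPM in WT and 360.9, 181 and 291.6 CPM in Mtm1-/y libraries. In each of these muscles the 2 highest libraries were Mtm1-/y and the other Mtm1-/y libraries lay within the WT range. In the heart the sum was 199.4, 195.3, 146.2 and 184.2 CPM in WT and 314.7, 135.4, 182.3 and 223.8 CPM in Mtm1-/y libraries. In the liver it was 168.5, 112 and 139 CPM in WT and 278.7, 189.9, 195.2 and 60.6 CPM in Mtm1-/y libraries. In both organs the highest and the lowest library were therefore Mtm1-/y animals.

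**Figure D1:**
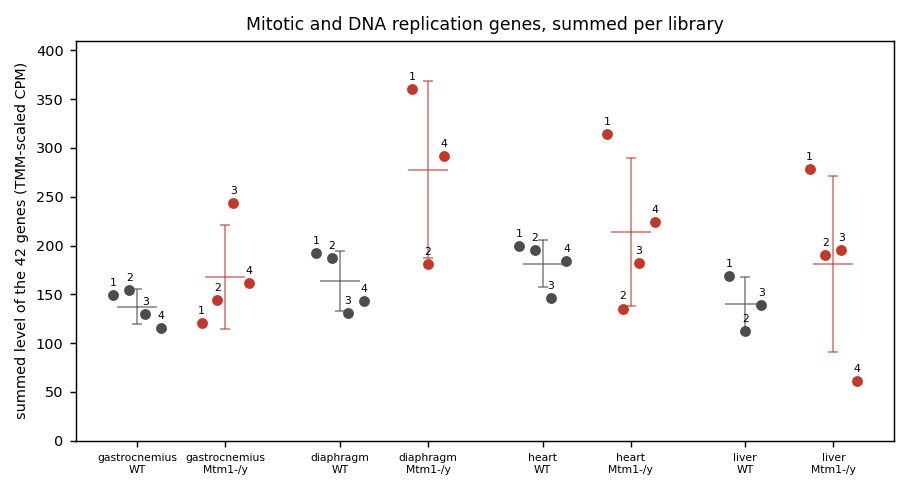
Summed level of the 42 mitotic and replication genes (y axis, scaled CPM) in each of the 30 libraries, by tissue and genotype on the x axis, where each point is 1 library labelled with its number, the horizontal line is the group mean and the vertical bar spans 1 SD on either side. Mtm1-/y libraries reached 244 CPM in the gastrocnemius and 360.9 CPM in the diaphragm, and in the liver they ran from 60.6 to 278.7 CPM.

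The genes moved together from library to library. Gastrocnemius Mtm1-/y 3 was the highest of the 8 gastrocnemius libraries for 37 of the 42 genes, and gastrocnemius WT 4 was the lowest for 29. In the diaphragm Mtm1-/y 1 was the highest library for 36 genes and WT 3 the lowest for 25. Heart Mtm1-/y 1 was the highest for 38 genes and heart Mtm1-/y 2 the lowest for 30, and in the liver Mtm1-/y 1 was the highest for 35 genes and Mtm1-/y 4 the lowest for 37. Relative to the mean of WT, the median gene stood at 1.11, 1.43, 2.98 and 1.72 times in the 4 Mtm1-/y gastrocnemius libraries, and at 2.89, 1.17 and 2.18 times in the 3 Mtm1-/y diaphragm libraries. It stood at 2.28, 0.492, 1.05 and 1.55 times in the Mtm1-/y hearts and at 2.38, 1.54, 1.47 and 0.212 times in the Mtm1-/y livers. WT libraries compared in the same way with the mean of the other WT libraries ran from 0.53 to 1.67 times. Of the WT libraries, WT 1 was highest in gastrocnemius (1.49), diaphragm (1.46), heart (1.26) and liver (1.67). Mtm1-/y 1 was the highest Mtm1-/y library in diaphragm, heart and liver and the lowest in gastrocnemius (1.11). Whether equal numbers mark a shared mouse or shared handling is not given, and the part of either in these levels was not tested. Since members share libraries, the 42 genes are not 42 observations of the genotype.

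**Figure D2:**
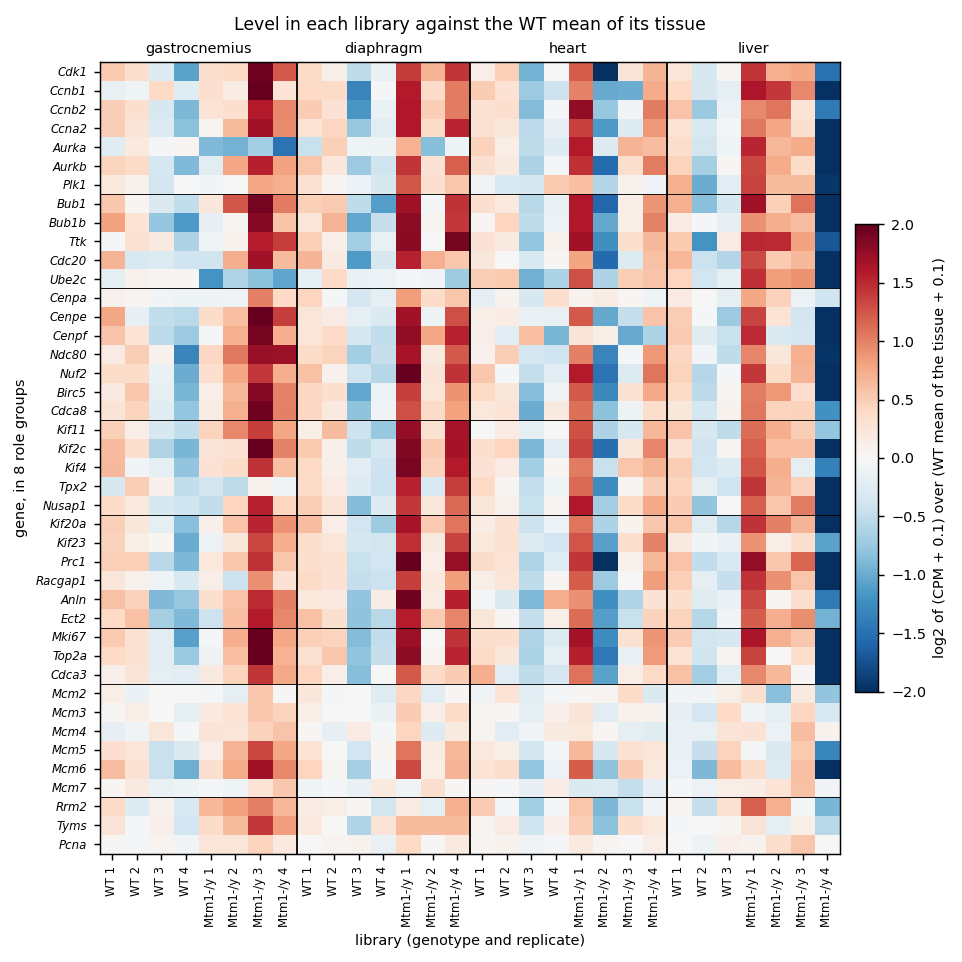
Log2 ratio of each of the 42 genes (rows, grouped by role) to the mean of WT in the same tissue, in each of the 30 libraries (columns), in log2 units of CPM plus 0.1, where the colours end at 2 in either direction. Whole columns differ, such as gastrocnemius Mtm1-/y 3 (median 2.98 times WT) and liver Mtm1-/y 4 (median 0.212 times WT), while the rows of Mcm2, Mcm3, Mcm4, Mcm7 and Pcna are paler than those of mitosis.

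In the gastrocnemius 8 of the 42 genes rose in Mtm1-/y mice, namely Rrm2, Kif11, Tyms, Mcm3, Bub1, Ndc80, Mcm4 and Pcna, and 2 fell, Ube2c and Aurka. Among the 15456 genes tested in this muscle 14.1% rose and 14.9% fell. The 10 genes called thus made up a smaller share of the list than the 29% called among all genes, and the 8 that rose a larger share than the 14.1%. The list stood further from the background in direction and at the unadjusted level. The log2 fold change was positive for 39 of the 42 genes, against 51.8% of all genes, with a median of 0.91 against 0.02. At an unadjusted p under 0.05, 25 genes were higher and 2 lower, against 20.9% and 20.7% of all genes. The WT and Mtm1-/y libraries did not overlap for 4 genes that were higher (Mcm3, Rrm2, Tyms and Pcna), where 14.7% of all genes were separated in this way, and for the 2 that fell, where the background was 16%. The count of calls depended on single libraries. Without Mtm1-/y 3, 2 genes rose and 2 fell, with a median log2 fold change of 0.54. Without WT 4, 1 rose and 2 fell, without WT 3, 2 and 2, and without WT 2, 4 and 2, and without Mtm1-/y 1, 16 rose and 2 fell. The shares of all genes called in these fits are not given here. A general change in calling can therefore not be told apart from one in these genes. DESeq2 called 16 genes higher and 2 lower, against 14.1% and 15.9% of all genes.

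Markers of other cell types moved in the same muscle, where 14.1% of all genes rose and 14.9% fell. Of 12 macrophage markers 11 rose, and their summed level was 57.6 to 102.4 CPM in WT and 171.0 to 207.7 CPM in Mtm1-/y libraries. Of 9 fibroblast markers tested 5 rose, with sums of 3030 to 8131 CPM in WT and 3535 to 10040 CPM in Mtm1-/y libraries. Of 10 satellite cell and myoblast markers 2 rose and 2 fell, with sums of 92.8 to 109.2 CPM in WT and of 216.9, 197.2, 111.8 and 116.0 CPM in Mtm1-/y libraries 1 to 4. T cell and thymocyte markers summed to 0.501 to 0.761 CPM in WT and 0.512 to 1.45 CPM in Mtm1-/y libraries, with 3 to 7 of 12 markers at 0 in a library. Of 10 skeletal myofibre markers 2 rose and 8 fell, with sums of 198500 to 233900 CPM in WT and 128100 to 139500 CPM in Mtm1-/y libraries. Of 10 white adipocyte markers 7 rose and 0 fell, while their sums were 3439 to 4824 CPM in WT and 2887 to 3971 CPM in Mtm1-/y libraries. Of 10 endothelial markers 3 fell, with sums of 525 to 661.8 and of 398.9 to 514.2 CPM. Only 2 of 11 B cell markers were tested, of which 1 fell, with sums of 55.5 to 77.7 and of 5.52 to 8.96 CPM. Cardiomyocyte markers summed to 6300 to 7177 CPM in WT and to 603.9 to 2317 CPM in Mtm1-/y libraries, without overlap. The genotypes overlapped in the sums of Schwann cell (164.2 to 551.1 and 240.3 to 675.1 CPM) and erythroid markers (102.1 to 187.4 and 50.3 to 141.7 CPM). They also overlapped for neutrophil (0.0835 to 0.845 and 0.454 to 2.54 CPM) and hepatocyte markers (30.6 to 111.6 and 4.34 to 56.5 CPM). The part of these cell types in the results was not tested.

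Ribonucleotide reductase subunit Rrm2, which makes deoxynucleotides for DNA synthesis, was at 3.90, 2.46, 3.18 and 2.38 CPM in WT and at 4.79, 5.32, 6.08 and 4.76 CPM in Mtm1-/y gastrocnemius. Every Mtm1-/y library was above every WT library (log2 fold change 0.81, SE 0.18, adjusted p = 0.00799), and the call held with each of the 8 libraries left out in turn and was lost when all 30 libraries shared 1 fit (adjusted p = 0.115). Tyms, thymidylate synthase, was at 0.793 to 1.28 CPM in WT and at 1.39 to 2.99 CPM in Mtm1-/y libraries (log2 fold change 0.92, adjusted p = 0.0295). Pcna, the sliding clamp of DNA polymerases, was at 6.69 to 7.19 and at 7.94 to 9.54 CPM (log2 change 0.29, adjusted p = 0.0403). A processed pseudogene of Pcna in the same table had 3396 counts in all, and a pseudogene of Ccnb2 had 227. Per the methods only uniquely aligned reads were counted, so the level of the clamp gene may lack reads that match both copies. All 3 genes of deoxynucleotide supply and the clamp were thus called without overlap between the genotypes, where 14.1% of all genes rose and 14.7% were higher without overlap. Without WT 4 Rrm2 alone of the 42 genes rose, so that the calls of Tyms and Pcna were lost there.

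The 6 subunits of the MCM2-7 helicase, which unwinds DNA at the replication fork, differed in how far they stood from WT. Mcm3 was at 6.37, 6.91, 6.29 and 5.55 CPM in WT and at 7.24, 7.62, 9.18 and 8.62 CPM in Mtm1-/y libraries. The genotypes did not overlap (log2 fold change 0.38, SE 0.11, adjusted p = 0.030). Mcm4 was at 5.57, 5.91, 7.4 and 6.03 CPM in WT and at 7.48, 7.38, 8.60 and 9.29 CPM in Mtm1-/y libraries, where only WT 3 and Mtm1-/y 2 overlapped (log2 fold change 0.39, SE 0.12, adjusted p = 0.0375). Mcm6 (log2 fold change 1.05, adjusted p = 0.0703) and Mcm5 (0.82, adjusted p = 0.0519) had larger fold changes and larger spread, and Mcm2 (0.11) and Mcm7 (0.20) the smallest of the 6. The calls of Mcm3 and Mcm4 each failed in 5 of 8 fits that left out a library.

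Of the 5 genes of the spindle checkpoint and the anaphase-promoting complex, the checkpoint kinase Bub1 rose. It was at 0.557, 0.367, 0.270 and 0.222 CPM in WT and at 0.431, 0.968, 1.62 and 0.835 CPM in Mtm1-/y gastrocnemius, where only Mtm1-/y 1 lay within the WT range (log2 fold change 1.42, SE 0.43, adjusted p = 0.0347). The checkpoint kinases Ttk (log2 fold change 1.05, adjusted p = 0.115) and Bub1b (0.85, adjusted p = 0.293) and the activator Cdc20 (0.89, adjusted p = 0.163) did not pass the test. Of the 7 centromere, kinetochore and passenger genes, Ndc80, which binds kinetochores to microtubules, rose. Its level was 0.445, 0.588, 0.419 and 0.0951 CPM in WT and 0.551, 0.907, 1.53 and 1.51 CPM in Mtm1-/y libraries (log2 fold change 1.54, SE 0.47, adjusted p = 0.0358). The kinetochore motor Cenpe was at 0.863, 0.404, 0.300 and 0.285 CPM in WT and at 0.623, 0.756, 2.62 and 1.37 CPM in Mtm1-/y libraries, with the second-largest fold change of the 42 and no call (log2 fold change 1.51, SE 0.52, adjusted p = 0.0548). The calls of Bub1 and Ndc80 each failed in 5 of 8 fits that left out a library. Cenpa, the centromeric histone, had a log2 fold change of 0.39, the lowest of its group.

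The spindle motor Kif11, which pushes spindle poles apart, was at 3.15, 2.46, 1.77 and 1.55 CPM in WT and at 3.09, 4.45, 5.97 and 3.90 CPM in Mtm1-/y gastrocnemius. Only Mtm1-/y 1 fell inside the WT range (log2 fold change 0.96, SE 0.26, adjusted p = 0.0226), and the call was lost without WT 3 or WT 4. Kif2c, which depolymerises microtubules at centromeres, was at 0.835, 0.661, 0.300 and 0.222 CPM in WT and at 0.623, 0.635, 2.68 and 1.1 CPM in Mtm1-/y libraries (log2 fold change 1.31, SE 0.56, adjusted p = 0.109). Mtm1-/y 3 and 4 lay above the WT range and the other 2 within it. Tpx2, which activates Aurora A on the spindle, was at 5.43, 9.62, 7.31 and 4.79 CPM in WT and at 5.22, 4.75, 7.17 and 6.38 CPM in Mtm1-/y libraries, and was the only gene besides Ube2c and Aurka with a negative log2 fold change (-0.20, SE 0.22, adjusted p = 0.523).

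None of the 6 cytokinesis genes was called by edgeR or DESeq2, and 2 were higher at an unadjusted p under 0.05. Kif20a, a motor of the spindle midzone, was at 2.42, 2.02, 1.5 and 0.920 CPM in WT and at 1.85, 2.6, 5.13 and 3.29 CPM in Mtm1-/y libraries (log2 fold change 0.90, SE 0.36, adjusted p = 0.085). Anln, which organises the contractile ring, was at 2.73, 2.5, 0.929 and 1.01 CPM in WT and at 2.25, 2.72, 5.22 and 3.69 CPM in Mtm1-/y libraries (log2 fold change 0.95, SE 0.39, adjusted p = 0.0965). Cdca3, a trigger of mitotic entry, was at 1.75, 1.95, 1.41 and 1.36 CPM and at 1.85, 2.24, 4.55 and 2.80 CPM (log2 change 0.82, SE 0.28, adjusted p = 0.0542). In each of these 3 genes Mtm1-/y 3 and 4 lay above the WT range. The proliferation antigen Mki67 was at 1.94 to 6.15 CPM in WT, and Mtm1-/y 3 alone was at 18.1 CPM, above 4.10 to 7.32 CPM in the other Mtm1-/y libraries.

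Of the 7 cyclins and mitotic kinases none rose, and Aurka, the kinase Aurora A of spindle poles, fell. Cdk1, the kinase that starts mitosis, was at 2.12, 1.84, 1.2 and 0.634 CPM in WT and at 1.82, 1.91, 5.83 and 3.53 CPM in Mtm1-/y libraries (log2 fold change 1.17, SE 0.45, adjusted p = 0.0749, adjusted p = 0.0339 with DESeq2). Its partner cyclins Ccnb1 (log2 fold change 1.13), Ccna2 (0.97) and Ccnb2 (0.96), and Aurkb (0.93) and Plk1 (0.43), the kinases Aurora B and Polo-like 1, did not pass the test. Aurka was at 15.3, 20.8, 17.8 and 18.9 CPM in WT and at 9.85, 9.41, 11.3 and 6.52 CPM in Mtm1-/y libraries. Every Mtm1-/y library was below every WT library, Mtm1-/y 3 included (log2 fold change -0.97, SE 0.16, adjusted p = 0.00188). Ube2c, the conjugating enzyme of the anaphase-promoting complex, was at 23.0, 27.8, 26.9 and 26.5 CPM in WT and at 11.3, 17.1, 14.7 and 12.6 CPM in Mtm1-/y libraries. It was also separated without overlap (log2 fold change -0.91, SE 0.13, adjusted p = 0.000878). The calls of Aurka and Ube2c held with each of the 8 libraries left out, and both were lost when all 30 libraries shared 1 fit (adjusted p = 0.128 and 0.151).

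**Figure D3:**
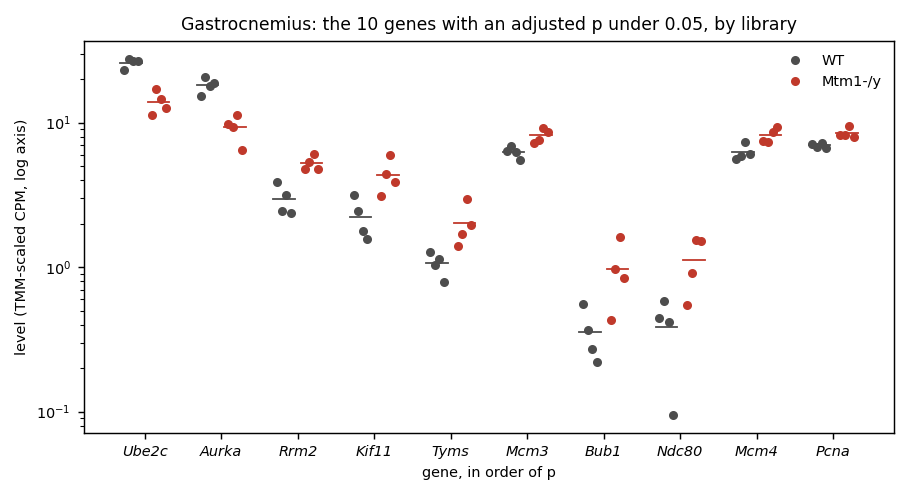
Level (y axis, scaled CPM, log axis) in each gastrocnemius library of the 10 genes called between the genotypes, in order of p on the x axis, with 1 point per library and a line at the group mean. Ube2c and Aurka were lower in all 4 Mtm1-/y libraries than in all 4 WT libraries, and Rrm2, Tyms, Mcm3 and Pcna were higher in all 4.

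The surroundings of the 2 genes that fell were examined after their values had been seen. Ube2c shares 592 exon bases with Tnnc2, fast skeletal troponin C, which lies on the opposite strand and had 4147319 counts over all libraries against 8898 of Ube2c. Whether the counting used strand is not given in the sources used here, and reads that fell in both genes were dropped. If strand was not used, the level of Ube2c rests on the bases outside the overlap and a read there does not show which strand it came from. If strand was used, reads in the shared bases were assigned by their strand, and a Tnnc2 read with the wrong strand would count for Ube2c. Neither case was tested. Tnnc2 also fell in the gastrocnemius, from a mean of 12880 to 8414 CPM (log2 change -0.61, SE 0.10, adjusted p = 0.00178). Ube2c was at 0.189% to 0.229% of the Tnnc2 level in WT and at 0.135% to 0.208% in Mtm1-/y gastrocnemius. In the heart, where Tnnc2 was under 1.2 CPM, Ube2c was at 0.82 to 2.47 CPM in WT, and in the diaphragm, where Tnnc2 was at 3951 to 6268 CPM, it was at 6.80 to 14.6 CPM in both genotypes. Aurka shares no exon base with another gene. Its neighbour Fam210b, on the opposite strand at a distance of 441 bases, fell too (log2 fold change -0.48, SE 0.14, adjusted p = 0.0274), and Cstf1, at 146 bases, did not pass the test (log2 fold change -0.12, SE 0.07, adjusted p = 0.223). Exons of 9 further genes of the list, Ccna2, Cdc20, Cdca8, Kif20a, Kif4, Mcm7, Nusap1, Plk1 and Prc1, also overlap a gene on the opposite strand.

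In the diaphragm none of the 42 genes was called by edgeR, where 0.0119% of 16796 genes were called. At an unadjusted p under 0.05, 29 genes were higher and 0 lower, against 6.58% and 4.17% of all genes. DESeq2 called 6 higher (Cdk1, Ccna2, Cenpf, Kif2c, Kif4 and Prc1) and 0 lower, against 1.83% and 0.738% of all genes. The log2 fold change was positive for 41 of 42 genes, against 48.2% of all genes, with a median of 1.11 against -0.01. All 3 Mtm1-/y libraries were above all 4 WT libraries for 6 genes, Cdk1, Plk1, Cenpf, Kif2c, Kif4 and Tyms, against 5.4% of all genes, and for 0 genes were all below, against 4.57%. Replicates of the diaphragm spread more than those of the gastrocnemius, with a biological coefficient of variation of 0.394 against 0.171.

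Cdk1 was at 3.95, 3.30, 2.09 and 2.75 CPM in WT and at 8.11, 4.91 and 8.29 CPM in Mtm1-/y diaphragm (log2 fold change 1.24, SE 0.28, adjusted p = 0.276). Cenpf, a protein of the outer kinetochore, was at 2.16, 2.40, 1.44 and 1.25 CPM and at 6.41, 3.16 and 5.43 CPM (log2 change 1.47, SE 0.33, adjusted p = 0.276). In both genes Mtm1-/y 1 and 4 stood far above WT and Mtm1-/y 2 just above it. The chromokinesin Kif4 was at 1.39, 1.11, 0.881 and 0.746 CPM in WT and at 4.14, 1.45 and 3.31 CPM in Mtm1-/y libraries (log2 fold change 1.53, SE 0.39, adjusted p = 0.286). Kif2c was at 1.23, 0.901, 0.555 and 0.626 CPM and at 3.24, 1.24 and 2.83 CPM (log2 change 1.56, SE 0.41, adjusted p = 0.293). Mtm1-/y 2 lay just above WT 1. The largest log2 fold change of the list was that of Ttk, at 1.60, and Mki67 was at 3.95 to 10.2 CPM in WT and at 24.3, 7.34 and 20.2 CPM in Mtm1-/y libraries. The replication genes stood lower in fold change, with a median of 0.25 over the helicase and 0.29 over deoxynucleotide supply and the clamp, and the 3 genes of that last group were Tyms (0.65), Rrm2 (0.29) and Pcna (0.22). Ube2c (-0.24, adjusted p = 0.787) and Aurka (0.06, adjusted p = 0.979) were the lowest of the 42.

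The diaphragm libraries also differed in their tissue makeup. Mtm1-/y 2, the library nearest to WT in the 42 genes, had the highest hepatocyte sum (56550 CPM), and Mtm1-/y 1 and 4 had 3346 and 942.3 CPM. WT 3, with the lowest sum of the 42 genes, had the lowest hepatocyte sum, 526.6 CPM. Fibroblast markers summed to 9385, 5194 and 10270 CPM in the Mtm1-/y libraries and to 2334 to 4946 CPM in WT. Satellite cell and myoblast markers summed to 151.1, 97.4 and 120.6 CPM in the Mtm1-/y libraries and to 79.4 to 96.6 CPM in WT, also without overlap. Of these 10 markers 3 were higher and 2 lower with p under 0.05 before adjustment, against 6.58% and 4.17% of all genes. With the log2 hepatocyte level as a covariate, which was added after the data had been seen, 0 of the 42 genes were called, 31 were higher at an unadjusted p under 0.05 and the median log2 fold change was 1.14. The share of all genes higher in that fit is not given here, and the shares given above belong to the fit without the covariate. The count of 31 therefore has no background beside it. Without Mtm1-/y 2, edgeR called 1 gene higher and the median was 1.38, and without Mtm1-/y 1 the median was 0.81. The part of fibroblasts and satellite cells was not tested.

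In the heart 0 genes of the list were called by edgeR, where 0.00656% of 15238 genes were called, and 0 by DESeq2, where 0.0984% rose and 0.361% fell by its test. With p under 0.05 before adjustment there were 0 genes higher and 1 gene lower, against 3.05% and 5.83% of all genes. Of the 42 log2 fold changes 38 were positive, with a median of 0.43, and without Mtm1-/y 1 the median was 0.06 with 26 positive, against 49.7% of all genes in the full set. The gene with the smallest p was Mcm7, a helicase subunit, at 11.7, 11.2, 10.3 and 12.7 CPM in WT and at 9.37, 9.49, 8.26 and 10.2 CPM in Mtm1-/y hearts. All 4 Mtm1-/y hearts were below all 4 WT hearts (log2 fold change -0.30, SE 0.11, unadjusted p = 0.0207, adjusted p = 0.546 with edgeR), where 2.16% of all genes were lower without overlap, and 0 genes of the list were higher in this way, against 2.1%. Aurka was at 1.57, 1.24, 0.754 and 0.919 CPM in WT and at 3.58, 0.910, 1.85 and 1.77 CPM in Mtm1-/y hearts (log2 fold change 0.86, SE 0.41, adjusted p = 0.546). Nusap1, which bundles spindle microtubules, was at 2.29, 2.03, 1.38 and 1.97 CPM and at 6.04, 1.15, 2.5 and 3.31 CPM (log2 change 0.77, SE 0.43, adjusted p = 0.553). Kif4 was at 1.91, 1.74, 0.918 and 1.58 CPM and at 3.26, 1.11, 2.30 and 2.52 CPM (log2 change 0.58, SE 0.34, adjusted p = 0.558). In Nusap1 and Kif4, Mtm1-/y 1 was the highest heart and Mtm1-/y 2 close to the lowest WT heart or below it. The same Mtm1-/y 1 heart had the highest sum of erythroid markers, 4670 CPM, against 488.5 to 2433 CPM in the other 7 hearts, and the part of this in the levels of the 42 genes was not tested.

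In the liver edgeR called 0 of the 42 genes and 0% of all 14305 genes, and DESeq2 called 0 of the 42, where 0.035% of all genes were higher and 0.14% lower. None of the 42 had an unadjusted p under 0.05, where 1.69% of all genes were higher and 2.54% lower, and none was separated between the genotypes without overlap, where 2.62% were higher and 3.47% lower. The log2 fold change was positive for 37 genes, against 51.1% of all genes, with a median of 0.43, which ran from 0.07 without Mtm1-/y 1 to 0.80 without Mtm1-/y 4. Mcm7 was at 11.5, 10.8 and 12.8 CPM in WT and at 13.0, 14.2, 17.6 and 11.2 CPM in Mtm1-/y livers (log2 fold change 0.26, SE 0.16, adjusted p = 0.969). Pcna was at 5.81, 5.46 and 6.32 CPM and at 6.18, 7.48, 8.66 and 5.84 CPM (log2 change 0.26, SE 0.17, adjusted p = 0.969). For both genes Mtm1-/y 4 lay within the WT range, and for Pcna so did Mtm1-/y 1. Ect2, which activates RhoA for cytokinesis, was at 5.01, 2.42 and 3.54 CPM in WT and at 8.59, 6.14, 7.04 and 1.86 CPM in Mtm1-/y livers (log2 fold change 0.68, SE 0.47, adjusted p = 0.969). Ttk was at 1.18, 0.291 and 0.903 CPM and at 2.44, 2.42, 1.46 and 0.171 CPM (log2 change 1.01, SE 0.78, adjusted p = 0.969). For Ect2 and Ttk 3 Mtm1-/y livers lay above all WT livers and Mtm1-/y 4 below all of them. Mtm1-/y 4 was below every WT liver for 38 of the 42 genes.

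Liver Mtm1-/y 4 stood further below WT in the mitotic genes than in the replication genes. Mki67 was at 7.74, 4.20 and 4.33 CPM in WT and at 17, 8.89, 7.95 and 0.342 CPM in Mtm1-/y livers. Nuf2, a partner of Ndc80, was at 0.646 to 1.41 CPM in WT and had 0 counts of 41147747 in Mtm1-/y 4. Spindle checkpoint genes summed to 7.52 to 15.3 CPM in WT and to 0.855 CPM in Mtm1-/y 4, and the helicase to 30.6 to 46.2 CPM and to 27.3 CPM. The hepatocyte, macrophage and endothelial sums of that library (153900, 240.9 and 185 CPM) lay within or near the WT ranges of 146800 to 166500, 237.1 to 266.1 and 176.7 to 184.6 CPM.

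**Figure D4:**
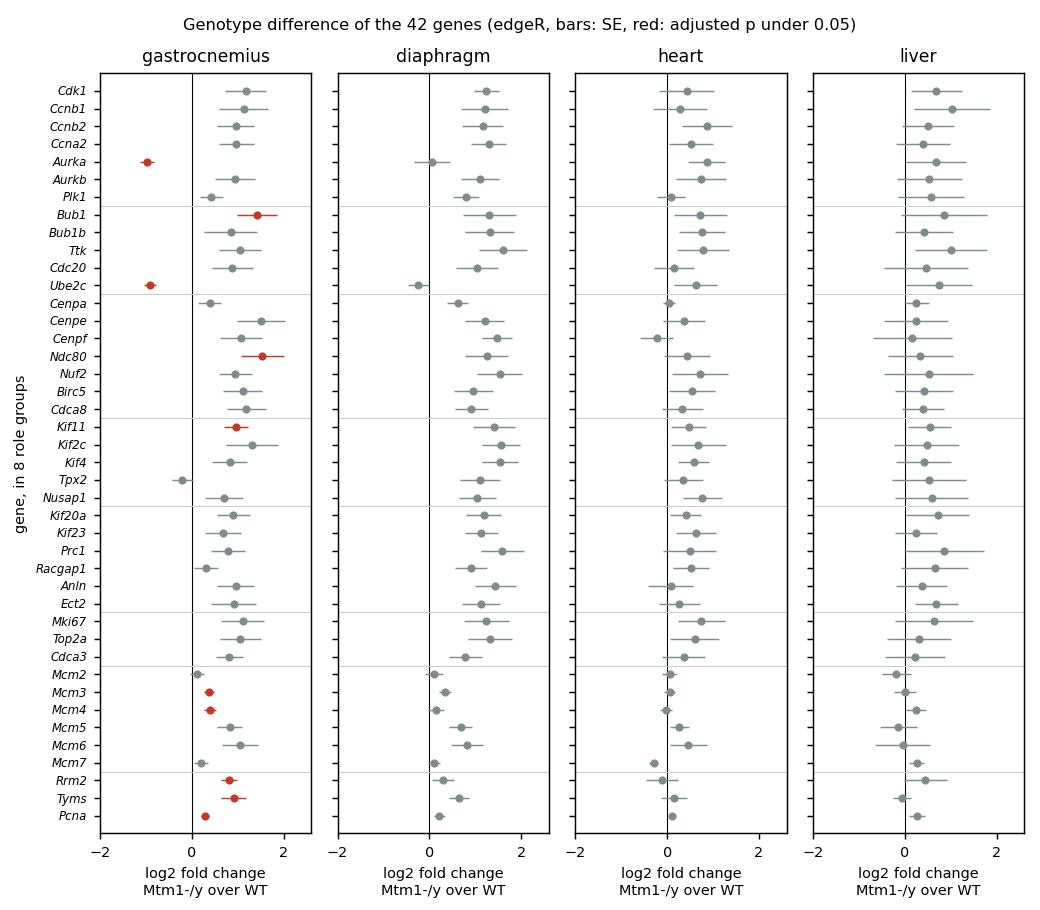
Log2 fold change of Mtm1-/y over WT (x axis) for each of the 42 genes (y axis, grouped by role) in the 4 tissues, where the bars span 1 SE on either side and red points passed an adjusted p under 0.05. Most points lie right of 0, with medians of 0.91 (gastrocnemius), 1.11 (diaphragm) and 0.43 (heart and liver), and only gastrocnemius points passed the test.

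Whether the genotype effect differed between tissues was tested as a contrast, and the 3 contrasts with the gastrocnemius share its 8 libraries. Between gastrocnemius and heart 2 genes differed, against 19.8% of 16627 genes tested. Aurka had a log2 fold change of -0.97 in the gastrocnemius and of 0.86 in the heart (difference -1.86, SE 0.43, adjusted p = 0.00794), and Ube2c of -0.91 and 0.62 (difference -1.55, SE 0.47, adjusted p = 0.0316). The call of Ube2c was lost without 10 of the 16 libraries, with adjusted p up to 0.086. Mcm7 (0.20 and -0.30) had a difference of 0.48 (SE 0.19, adjusted p = 0.0842). By DESeq2 0 genes were higher and 2 lower, against 9.88% and 14.3% of all genes, and with p under 0.05 before adjustment 3 genes were higher and 2 lower, against 18% and 16.7%.

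Between gastrocnemius and diaphragm edgeR called 0 genes, against 0.28% of all genes, and DESeq2 called 0, against 0.885% higher and 1.24% lower. With p under 0.05 before adjustment there were 0 genes higher and 3 lower, against 7.02% and 5.83%. These were Tpx2 (difference -1.30, SE 0.51, adjusted p = 0.324), Ube2c (-0.65, SE 0.27, adjusted p = 0.34) and Aurka (-1.03, SE 0.43, adjusted p = 0.346). Between gastrocnemius and liver edgeR called 0, against 6.34% of all genes, and DESeq2 0, against 4.48% higher and 6.76% lower. With p under 0.05 before adjustment there was 1 gene higher and 2 lower, against 10.1% and 12.1%. These were Tyms (0.95, SE 0.34, adjusted p = 0.113), Aurka (-1.66, SE 0.67, adjusted p = 0.155) and Ube2c (-1.64, SE 0.67, adjusted p = 0.165). Without liver Mtm1-/y 4 the last 2 passed. Between diaphragm and heart edgeR called 0, against 0.00573% of all genes, and DESeq2 0, against 1.02% higher and 0.24% lower. With p under 0.05 before adjustment there were 2 genes higher and 0 lower, against 6.73% and 3.87%. The 2 were Cenpf (1.68, SE 0.54, adjusted p = 0.278) and Mcm7 (0.38, SE 0.17, adjusted p = 0.453). Cenpa followed at 0.56 (SE 0.26, adjusted p = 0.471).

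In WT mice of this age the 4 tissues differed in which of the genes stood high. Levels here come from 1 scaling of all WT libraries, and the comparisons share their WT libraries. Per kilobase of exon, Ube2c (11 CPM per kb), Aurka (7.92) and Pcna (3.19) led in the gastrocnemius, Pcna (3.71) and Ube2c (3.67) in the diaphragm, Pcna (3.96) and Cenpa (3.44) in the heart, and Cdc20 (3.83) and Mcm7 (3.23) in the liver. Pcna and Ube2c in the diaphragm and Pcna and Cenpa in the heart did not differ beyond their SD, which was 0.25 and 0.78, and 0.18 and 0.69 CPM per kb. Nor did Cdc20 and Mcm7 in the liver, with SD of 1.97 and 0.285 CPM per kb. Aurka was at 20.1 ± 2.6 CPM (SD, n = 4) in the gastrocnemius, 3.74 ± 1.07 CPM (SD, n = 4) in the diaphragm, 2.92 ± 0.767 CPM (SD, n = 3) in the liver and 0.935 ± 0.300 CPM (SD, n = 4) in the heart. The fall of Aurka and Ube2c in Mtm1-/y gastrocnemius concerned the tissue in which both were highest in WT. For Ube2c the limit given above holds here too, since it shares 592 exon bases with Tnnc2. Scaled within each tissue, mean WT Tnnc2 was 12880 CPM in gastrocnemius, 5236 in diaphragm, 0.885 in heart and 1.29 in liver. The part of Tnnc2 reads in the level of Ube2c was not tested.

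**Figure D5:**
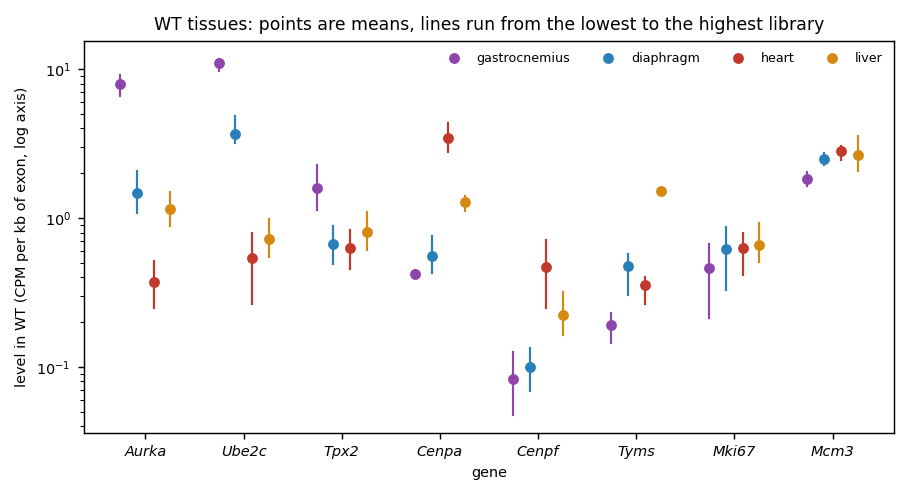
Level in WT (y axis, CPM per kilobase of exon, log axis) of selected genes (x axis) in the 4 tissues, where each point is the mean of a tissue and the line runs from its lowest to its highest library. Ube2c and Aurka were highest in the gastrocnemius (means of 11 and 7.92 CPM per kb), and Cenpa was highest in the heart (3.44). The Ube2c level carries the limit of its exon overlap with Tnnc2 given in the text.

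Between WT diaphragm and gastrocnemius 7 genes were higher and 3 lower in the diaphragm, where 30.6% of 17725 genes were higher and 23.8% lower (54.4% called). Aurka (log2 difference -2.42, SE 0.23, adjusted p = 3.33e-06), Tyms (1.32, SE 0.21, adjusted p = 0.00015) and Ube2c (-1.59, SE 0.28, adjusted p = 0.000264) had the smallest p. Scaled within the diaphragm, Tyms was at 3.95, 3.41, 2.22 and 4.12 CPM in the WT libraries and lowest in WT 3, which also had the lowest sum of hepatocyte markers (526.6 CPM against 28100 to 43180 CPM). Its call held with each of the 15 WT libraries left out (log2 difference 1.21 to 1.57), and the part of liver RNA in this difference was not tested. In the heart 8 were higher and 3 lower than in the gastrocnemius, against 32.6% and 28.7% of all genes (61.3% called), led by Aurka (-4.42, SE 0.26, adjusted p = 6.58e-09), Cenpa (3.02, SE 0.19, adjusted p = 9.02e-09) and Ube2c (-4.35, SE 0.32, adjusted p = 4.99e-08). Cenpa was at 20.1 ± 4.07 CPM (SD, n = 4) in the heart and at 2.47 ± 0.155 CPM (SD, n = 4) in the gastrocnemius on the scaling of all WT libraries. Scaled within the heart it was at 25.3 and 26.8 CPM in Mtm1-/y hearts 1 and 2, the highest and the lowest hearts for most of the 42 genes, and at 19.4 to 30.5 CPM in WT hearts. In the liver 21 were higher and 5 lower than in the gastrocnemius, against 37.4% and 42.1% of all genes (79.5% called), led by Tyms (2.99, SE 0.23, adjusted p = 2.55e-08), Ube2c (-3.91, SE 0.35, adjusted p = 1.59e-07) and Aurka (-2.77, SE 0.27, adjusted p = 3.29e-07). In the liver 15 were higher and 6 lower than in the heart, against 35.6% and 40.8% of all genes (76.4% called), led by Tyms (2.11, SE 0.22, adjusted p = 5.88e-07), Mcm4 (-1.16, SE 0.14, adjusted p = 4.48e-06) and Cenpa (-1.43, SE 0.19, adjusted p = 8.87e-06). Tyms was at 9.32 ± 0.340 CPM (SD, n = 3) in the liver, 2.92 ± 0.759 CPM (SD, n = 4) in the diaphragm, 2.16 ± 0.365 CPM (SD, n = 4) in the heart and 1.17 ± 0.221 CPM (SD, n = 4) in the gastrocnemius. The differences of Ube2c carry the limit of its exon overlap with Tnnc2. The share of the 42 genes called was below that of all genes in each of these 4 comparisons.

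Other genes of the cycle, listed beside the 42, were read in the same gastrocnemius libraries. The lists were chosen with earlier results of these data known, so they give no independent support. Of 45 other mitosis genes tested 12 rose and 0 fell. All 45 had a positive log2 fold change, against 51.8% of all genes, with a median of 0.83. Examples are Troap (log2 fold change 1.55, SE 0.37, adjusted p = 0.0119), the kinesins Kif18a (0.61, SE 0.15, adjusted p = 0.0153) and Kifc1 (1.83, SE 0.50, adjusted p = 0.0222), and Incenp, the scaffold of the passenger complex (0.64, SE 0.18, adjusted p = 0.0237). Beside these counts, 14.1% of all genes rose and 14.9% fell. Of 41 other S phase genes 6 rose and 3 fell, with a median of 0.41, so that the share that rose was close to that of all genes and the share that fell below it. The transcription factors E2f8 (2.09, SE 0.30, adjusted p = 0.0011) and E2f2 (1.41, SE 0.21, adjusted p = 0.00108) and the licensing factor Cdt1 (1.14, SE 0.27, adjusted p = 0.0111) rose, and Pola2, a subunit of DNA polymerase alpha, fell (-0.35, SE 0.09, adjusted p = 0.0156).

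Of 11 genes of the G1 phase, namely cyclins, their kinases, E2f3, Myc and Mycn, 4 rose, Cdk6 (log2 fold change 0.94), Myc (1.33), Cdk4 (0.29) and Cdk2 (0.41), and 1 fell, with a median of 0.29. Of 19 cell cycle inhibitors and DREAM genes 7 rose and 2 fell, with a median of 0.12. Beside the counts of both lists, 14.1% of all genes rose and 14.9% fell. Cdkn1a, the inhibitor p21, rose from a mean of 60.4 to 183 CPM (log2 change 1.60, SE 0.26, adjusted p = 0.00182), and Rb1, the retinoblastoma protein, rose by 0.65 (SE 0.08, adjusted p = 0.000589), while the pocket protein gene Rbl2 (-0.44, SE 0.10, adjusted p = 0.00916) and cyclin G1, Ccng1 (-0.68, SE 0.11, adjusted p = 0.00145), fell. In the diaphragm the 47 other mitosis genes tested all had a positive log2 fold change, with a median of 0.85, and edgeR called 0 of them, DESeq2 4, and 24 were higher at an unadjusted p under 0.05.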

How the data were processed

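RNA was sequenced from 30 mouse tissue samples. Per the labels and methods, the authors made stranded mRNA libraries, trimmed reads with cutadapt 1.10, mapped them with STAR 2.5.3a on the mm10 genome and deposited raw read counts per gene made with HTSeq 0.6.1p1, where reads in 2 genes are dropped. Strandedness of counting is not given in the sources used here. Counts were used as deposited. For each tissue alone, low genes were removed by filterByExpr (minimum count 10) and libraries scaled by TMM and tested with edgeR 4.0.16 in R 4.3.3 (quasi-likelihood F test, Benjamini-Hochberg, threshold 0.05). Differences between tissues and between WT tissues used 1 fit of the libraries concerned. DESeq2 1.42.0, other filters and scalings, a replicate block and leaving out libraries were alternatives. Fits were tested on simulated counts. The members and lists were chosen with earlier results of these data known. Full statistics were given to the members with the smallest p per role group in the gastrocnemius, the 4 with the smallest p in other tissues, the 3 in each contrast and up to 4 genes per other list. The p-values weigh a difference between groups against the spread between these samples. The fits across tissues treated libraries as independent, although the sources do not say whether tissues share mice. Depth was 24873817 to 44289343 counts.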

Additional observations from a re-analysis of the deposited data

Results flagged for a closer look

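The genotype effect of 2 of the 42 genes differed between gastrocnemius and heart by the test of the difference itself. Among all 16627 genes tested 19.8% differed, so the list stood below the background. Aurka had a log2 fold change of -0.97 (SE 0.16) in the gastrocnemius and 0.86 (SE 0.41) in the heart, a difference of -1.86 (SE 0.43, edgeR adjusted p = 0.00794). Ube2c had -0.91 (SE 0.13) and 0.62 (SE 0.47), a difference of -1.55 (SE 0.47, edgeR adjusted p = 0.0316), with 592 exon bases shared with Tnnc2, a gene of 12880 CPM in WT gastrocnemius and under 1.2 CPM in the heart. In neither gene did the heart effect alone pass the test. Both calls were lost in the fit of all 30 libraries, 1 remained with the replicate block, and the call of Ube2c was lost without 10 of the 16 libraries.

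A single library lay far from the other 3 of its group, by the gap to its nearest neighbour as a share of the group's range, in 6 of 252 groups of 4 for single genes and in 9 of 156 for summed lists, where chance gives about 1 group in 20. The genes were Ccnb1 in Mtm1-/y gastrocnemius (0.946), Cdc20 in WT gastrocnemius (0.923), Anln (0.921) and Ube2c (0.889) in WT diaphragm, and Cdca8 (0.886) and Cdca3 (0.837) in WT heart. Among sums of the 42 genes by role these were the replicative helicase (0.907) and cytokinesis (0.87) in WT heart. The sums of other lists were T cell and thymocyte markers in WT diaphragm (0.977), neutrophil markers in Mtm1-/y liver (0.955), cell cycle inhibitors and DREAM genes in WT diaphragm (0.949) and Mtm1-/y gastrocnemius (0.858), fibroblast markers in WT gastrocnemius (0.945), endothelial markers in Mtm1-/y heart (0.844) and hepatocyte markers in Mtm1-/y gastrocnemius (0.83).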

How the results depend on the processing

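Over all alternatives 791 values of named genes kept their direction and side of the threshold, 21 passed it only under the alternative, 56 were lost and 0 reversed, and 194 counts of genes called stayed within 1.5 times while 30 did not. In the gastrocnemius the 10 calls became 4 without the filter on low counts, 18 with DESeq2, 1 in a fit of all 30 libraries and 2 at an absolute log2 fold change over 1, and 3 to 18 with a library left out. In the diaphragm the 0 calls became 6 with DESeq2 and 0 to 1 with a library left out. Between gastrocnemius and heart the 2 differences became 0 in the fit of all 30 libraries and 1 to 3 with a library left out, and between gastrocnemius and liver 0 to 2. Between WT diaphragm and gastrocnemius the 10 calls became 4 at a log2 fold change over 1 and 6 to 20 with a library left out (6 without gastrocnemius WT 4, 20 without diaphragm WT 3), and between WT heart and gastrocnemius the 11 calls became 7 at that fold change. Except for DESeq2, whose shares are given above, these counts stand without the share of all genes called in the same setting. A general change in calling can therefore not be told apart from a change in these genes. The causes were not tested beyond the construction of each alternative.

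The labels do not say that equal replicate numbers mark a shared animal. Within a tissue the check correlated a WT with an Mtm1-/y library, which are different animals. These values therefore cannot show a shared mouse. For equal numbers they ran from -0.0136 to 0.104 in the gastrocnemius, -0.695 to 0.505 in the diaphragm, -0.59 to 0.312 in the heart and -0.0142 to 0.423 in the liver. Only pairs of WT libraries from different tissues bear on a shared animal, and a pairing was not seen in every such pair. Their correlation ran from -0.097 to 0.268 for equal numbers (median 0.0769, 7 of 21 pairs over 0.1). For different numbers the median was -0.0255, with 6 of 63 pairs over 0.1. Pairs of Mtm1-/y libraries from different tissues were not checked. With the replicate block the calls were 4 in the gastrocnemius, 1 for gastrocnemius minus heart, 2 for gastrocnemius minus liver and 19 between WT heart and gastrocnemius. Within a tissue, and in the contrasts of genotype effects, the block joined different animals. The share of all genes called with the block is not given here. Many members had under 2 CPM, and small changes in these may have been missed. Whether depth or the spread between libraries set that limit was not tested.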
